A study of Homo sapiens with 12 samples.

Results

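Divergent transcripts are the RNAs named -DT in the human gene nomenclature, each after the gene whose promoter region it shares. There were 149 rows of that kind in the deposited tables, among 60656 features. The 27 described here were chosen by their measured level, a mean of at least 2 TPM over 11 libraries. TPM is an abundance scaled for transcript length that adds up to the same total in every library. Since the level chose the 27 transcripts, their levels are a description. Of the other 122 rows, 68 were listed at 0 in all 11 libraries and 54 lay between 0 and the threshold.

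The 12 libraries came from OCI-LY1, an established human diffuse large B-cell lymphoma line, and OCI-LY1R, its venetoclax-resistant derivative, with 3 libraries in each of 4 groups. Both lines received DMSO, the vehicle, or decitabine at 1 µM over 3 days. OCI-LY1R had been selected from the parental line by escalating venetoclax, an inhibitor of BCL2, to a final 1 µM, and whether it is a single clone is not stated. The labels do not say whether libraries of a group came from separate cultures, so a p-value here measures the spread between libraries, which may be technical. Replicate 3 of the parental decitabine group is given apart throughout, as the rule for the 27 transcripts left it out, and the other decitabine libraries of that line are replicates 1 and 2. In the resistant line the libraries have the letters a, b and c.

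Most human promoters start transcription in both directions. RNA polymerase II makes the coding transcript one way and an upstream antisense RNA the other way. The antisense RNA is usually cut early by the Integrator or cleavage and polyadenylation complexes and removed by the nuclear exosome. A minority of these RNAs are spliced, polyadenylated and long-lived enough to be annotated as genes. Their promoters are often CpG islands. Decitabine is a cytidine analogue that, once in DNA, traps DNA methyltransferases and lowers CpG methylation. Neither methylation nor transcription start sites were measured.

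Of the 27 transcripts, 26 had a gene model in GENCODE 29 (GRCh38) by Ensembl identifier, and FBXO30-DT had none. All 26 lay on the strand opposite the neighbouring gene, which is the gene named before -DT. In 23 of them the annotated starts of the pair lay within 1000 bases, and the median distance of all 26 was 200.5 bases. GLCCI1-DT started 1109 bases and KLHDC7B-DT 2985 bases from the neighbour's start. CDKN2A-DT, at chr9:21966929-21967751 on the plus strand, goes against its name in this annotation. Its start lay 28372 bases from that of CDKN2A, just past the other end of the gene.

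The stretch between the starts is what the pair shares. Among the pairs with RefSeq starts, 8 had a part of it of 20 to 249 bases that no annotated exon covers. Longer stretches were left out, as with the 345 bases between the RefSeq starts of PDXP-DT and PDXP. The part is printed for the 5 of the 8 with the highest mean level. Each is in the reading direction of the divergent transcript, 5′ to 3′, from RefSeq GRCh38.p14, with every CG in capitals. They are chr21:33266261-33266357 (minus strand, 97 bases, 10 CG) for IL10RB-DT, chr1:89632895-89633071 (minus strand, 177 bases, 27 CG) for LRRC8C-DT, chr1:24556025-24556086 (minus strand, 62 bases, 8 CG) for NCMAP-DT, chr4:88284770-88284929 (plus strand, 160 bases, 18 CG) for PPM1K-DT and chr16:30355362-30355433 (plus strand, 72 bases, 8 CG) for CD2BP2-DT.
IL10RB-DT: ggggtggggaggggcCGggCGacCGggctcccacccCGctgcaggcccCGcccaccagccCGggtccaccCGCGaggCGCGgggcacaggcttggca
LRRC8C-DT: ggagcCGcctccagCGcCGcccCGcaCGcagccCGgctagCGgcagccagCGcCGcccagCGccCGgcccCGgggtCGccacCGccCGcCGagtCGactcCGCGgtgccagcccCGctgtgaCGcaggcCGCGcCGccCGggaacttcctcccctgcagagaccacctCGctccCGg
NCMAP-DT: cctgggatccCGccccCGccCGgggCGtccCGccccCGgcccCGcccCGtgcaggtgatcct
PPM1K-DT: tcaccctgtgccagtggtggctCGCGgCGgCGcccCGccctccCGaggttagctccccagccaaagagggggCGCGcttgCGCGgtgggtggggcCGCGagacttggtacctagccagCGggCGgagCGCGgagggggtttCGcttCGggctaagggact
CD2BP2-DT: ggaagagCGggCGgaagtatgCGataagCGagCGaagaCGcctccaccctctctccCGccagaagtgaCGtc
The share of G and C ran from 62.5% in CD2BP2-DT to 83.9% in NCMAP-DT. Of the stretches not printed, NCK1-DT had 66.7%, EIF3J-DT 78.9% and RAB30-DT 54.9%, the lowest of the 8, with 7 CG in 142 bases.

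RefSeq promoter windows, 1 fixed length around each start, were found for 24 of the 27 transcripts. They held a median of 27.5 CG, against 14 in all 27305 windows and 30 in the 471 windows of any -DT gene. CTBP1-DT held the most, 46, followed by LRRC8C-DT with 42, while PIK3IP1-DT held 1 and GARS1-DT 2. The RefSeq starts of PIK3IP1-DT and GARS1-DT lie 42814 and 16955 bases from those of their neighbours, unlike their GENCODE starts. On both strands, GGGCGG occurred in 19 of the 24 windows (79.2%, against 44.6% of all windows), CCAAT in 10 (41.7% against 35.7%) and CCGGAAG in 5 (20.8% against 10.7%). CACGTG was in 8.33% of the 24 and 7.43% of all windows, GCATGC in 8.33% and 7.48%, TGACGTCA in 4.17% and 1.98%, and TATAAA in 4.17% and 11.95%. A match is a run of letters and was not tested as a binding site.

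In general measures, parental decitabine replicate 3 was unlike the other 11. Features at 1 TPM or more numbered 13701 in it, against 7137 to 7405 in vehicle and 8250 to 9117 in the other decitabine libraries. The 6 B-cell markers summed to 2865 TPM in replicate 3 and to 21.0 to 152 TPM in the 11, and the 5 germinal-centre markers to 679 and 2.51 to 41.5 TPM. T-cell markers (4 genes) summed to 0.58 TPM in it and at most 0.31 TPM elsewhere, with CD2 and CD3D at 0, myeloid markers (3 genes) to 0.34 and at most 1.39 TPM, with CSF1R and LYZ at 0, epithelial markers (3 genes) to 34.8 and at most 22.4 TPM, and fibroblast markers (2 genes) to 2.39 and 0 TPM. ACTB, which encodes beta-actin, reached 6353 TPM in replicate 3, against 8.14 to 20.4 TPM in the 11. The defining B-cell marker CD79A reached 1491 TPM there, against 3.39 to 8.74 TPM. The libraries were made with a stranded kit, and the strand setting of the counting is not given in the sources used here. Where it is unknown, RNA of a divergent transcript and RNA of a gene opposite its exons cannot be told apart from these values. This holds for every -DT level and change given here, and the same limit applies to those of the coding genes.

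The levels spanned a wide range. With the mean taken over the 11 libraries, 4 transcripts stood above 100 TPM, 12 between 10 and 100 TPM and 11 below 10 TPM. The 27 transcripts held 98.3 to 99.5% of all TPM under -DT names in each of the 11 libraries, a sum of 1068 to 2035 TPM. Just above the threshold of 2 TPM lay ZKSCAN2-DT (2.42 TPM), SAP30-DT (2.26 TPM) and CDKN2A-DT (2.21 TPM), and just under it RPP38-DT (1.83 TPM), MAN1B1-DT (1.51 TPM) and NIPBL-DT (1.22 TPM). In 21 of the 27 transcripts every one of the 11 values was above 0.

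**Figure D1:**
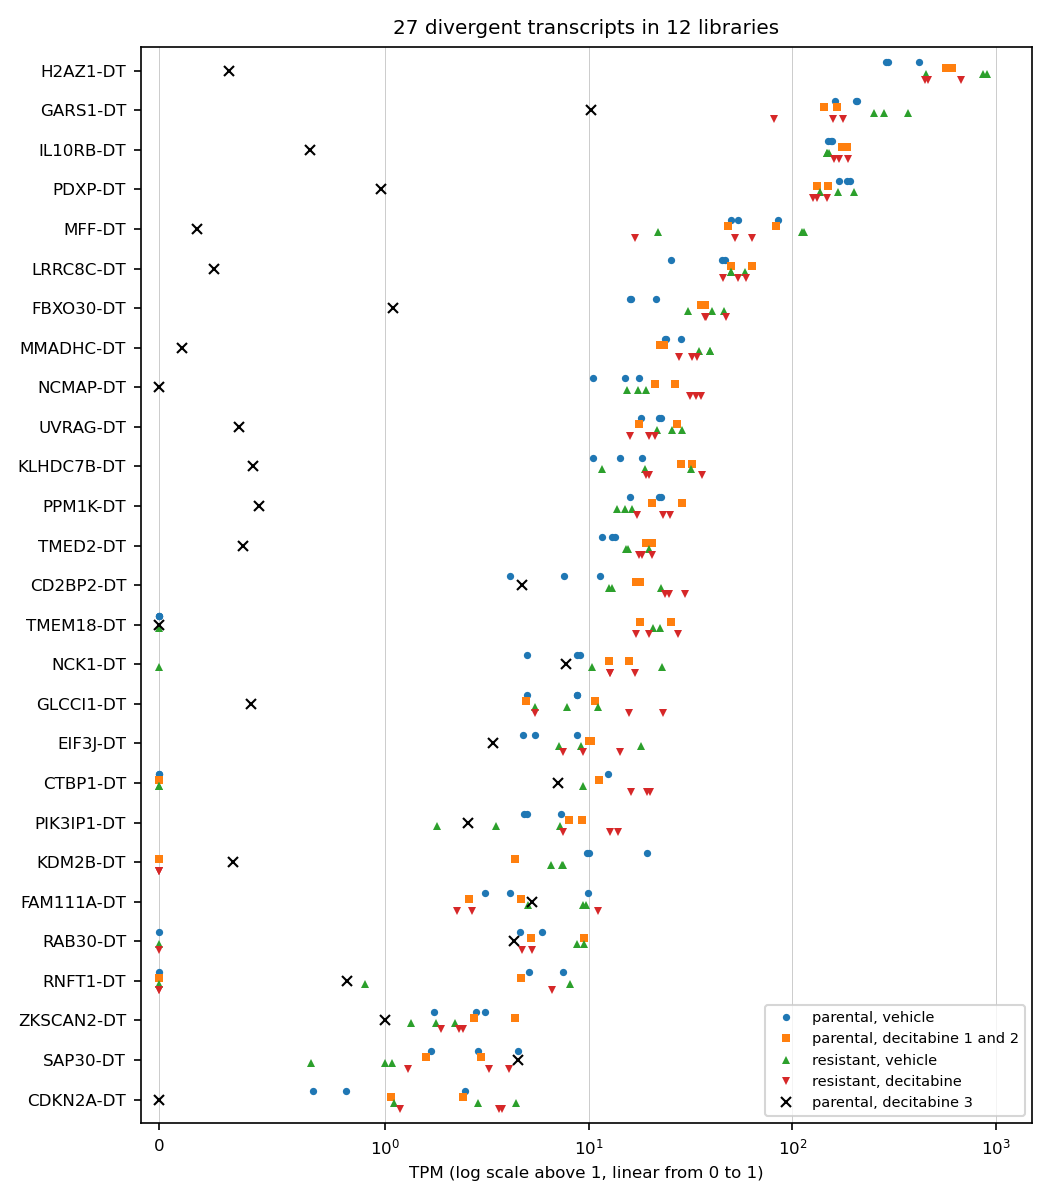
TPM of each of the 27 divergent transcripts (rows, ordered by the mean of 11 libraries) in the 12 libraries, with 1 symbol per group and a cross for parental decitabine replicate 3; the axis is linear from 0 to 1 and logarithmic above. The crosses of 17 transcripts lie left of all their other points, and that of SAP30-DT lies right of them at 4.49 TPM.

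Among the neighbours with roles in chromatin, H2AZ1 encodes the histone variant H2A.Z. H2AZ1-DT (chr4:99950006-100195099, plus strand) was the highest of the 27 transcripts, with 294, 416 and 289 TPM in parental vehicle, 604 and 567 in parental decitabine 1 and 2, 450.3, 900.4 and 859 in resistant vehicle and 676, 463 and 448 in resistant decitabine. Every resistant library was above every parental vehicle library. KDM2B binds unmethylated CpG through its CXXC domain and recruits Polycomb. KDM2B-DT stood at 9.83 to 19.2 TPM in parental vehicle and was at 0 in 4 of the 11 libraries, all of them treated with decitabine. SAP30-DT, next to a subunit of the Sin3 histone deacetylase complex, ranged from 0.672 to 4.47 TPM. CTBP1, a transcriptional corepressor, had a partner that switched: CTBP1-DT was listed at 0 in 5 of the 11 libraries and at 9.39 to 19.9 TPM in the other 6. CDKN2A-DT, next to a cell-cycle inhibitor locus, lay between 0.683 and 4.37 TPM.

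Beside genes of translation and RNA processing, GARS1-DT was the strongest. GARS1 is the glycyl-tRNA synthetase. GARS1-DT (chr7:30516309-30594809, minus strand) had 162, 208 and 205 TPM in parental vehicle, 143 and 166 in parental decitabine, 252, 371 and 281 in resistant vehicle and 177, 81.2 and 158 in resistant decitabine. Its 3 resistant vehicle values were the highest of the 11. CD2BP2 belongs to the U5 small nuclear ribonucleoprotein, and CD2BP2-DT ran from 4.08 TPM in parental vehicle 1 to 29.5 TPM in resistant decitabine c. EIF3J-DT, beside a subunit of the translation initiation factor eIF3, lay between 4.76 and 18.1 TPM.

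Of the pairs with mitochondrial or metabolic genes, PDXP-DT (chr22:37641832-37658377, minus strand) was the highest. PDXP encodes pyridoxal phosphatase. PDXP-DT had 191, 168 and 185 TPM in parental vehicle, 149.8 and 132 in parental decitabine, 136, 201 and 167 in resistant vehicle and 126, 132 and 148 in resistant decitabine. The parental groups did not overlap, while the resistant groups did. MFF, the mitochondrial fission factor, had a partner that varied within groups: MFF-DT spanned 21.8 to 115 TPM in resistant vehicle alone. MMADHC handles vitamin B12 in the cell, and MMADHC-DT stayed between 22.2 and 39.3 TPM. PPM1K activates the breakdown of branched-chain amino acids, and PPM1K-DT lay between 13.7 and 28.6 TPM.

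Receptor, channel and membrane traffic genes made up another group. IL10RB is a subunit of the interleukin-10 receptor. IL10RB-DT (chr21:33263873-33266260, minus strand) was the steadiest of the 4 highest transcripts, with 149, 155 and 157 TPM in parental vehicle, 186 and 174 in parental decitabine, 148, 151 and 148 in resistant vehicle and 159.9, 187 and 169 in resistant decitabine. All 5 decitabine values stood above all 6 vehicle values. LRRC8C, a subunit of volume-regulated anion channels, had LRRC8C-DT at 25.5 to 63.0 TPM. UVRAG-DT, beside an autophagy gene, stood at 16.0 to 28.7 TPM, and TMED2-DT, beside a cargo receptor of the early secretory pathway, at 11.6 to 20.4 TPM. RAB30-DT, next to a Golgi GTPase, was listed at 0 in 3 of the 11 libraries and reached 9.50 TPM. NCK1-DT, next to an SH2 and SH3 adaptor, was at 0 in resistant vehicle b and at 4.97 to 22.8 TPM in the other 10 libraries. PIK3IP1-DT, beside an inhibitor of PI3-kinase, ranged from 1.79 to 13.9 TPM.

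Among the remaining pairs, FBXO30-DT, beside a subunit of a ubiquitin ligase, stood at 15.9 to 47.2 TPM. NCMAP-DT, beside a myelin protein gene, lay between 10.5 and 35.7 TPM. KLHDC7B-DT ran from 10.5 to 35.9 TPM and GLCCI1-DT from 4.91 to 23.2 TPM. FAM111A-DT, beside a protease gene that protects replicating DNA, had 2.26 to 11.1 TPM. RNFT1-DT was at 0 in 5 of the 11 libraries and at most at 8.07 TPM, and ZKSCAN2-DT lay between 1.33 and 4.33 TPM. TMEM18-DT, beside a nuclear membrane protein gene, was at 0 in 4 of the 11 libraries and between 17.1 and 27.3 TPM in the other 7.

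Parental decitabine replicate 3 gave another picture. Of the 27 transcripts, 17 were lower there than in all 11 other libraries (63.0%), 9 lay within their range and 1, SAP30-DT, was higher. NCMAP-DT, TMEM18-DT and CDKN2A-DT were listed at 0 in it, and 16 of the 27 stood under 1 TPM. The median was 0.67 TPM, against 16.7 TPM for the means of the 11. H2AZ1-DT was at 0.31 TPM, which is 1739-fold below its mean over the 11 libraries, and IL10RB-DT at 0.67 TPM, 242-fold below. The highest of the 27 in replicate 3 were GARS1-DT (10.3 TPM), NCK1-DT (7.69 TPM), CTBP1-DT (7.10 TPM), FAM111A-DT (5.28 TPM) and CD2BP2-DT (4.69 TPM). Of these 5, GARS1-DT alone lay below all its other values. Of all 6804 features whose mean over the 11 libraries reached 2 TPM, 2887 (42.4%) were likewise below all 11 libraries in replicate 3, and among those named -AS, another class of antisense RNA, 228 of 384 (59.4%).

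The neighbouring coding genes stood the other way round in that library. In replicate 3, 21 of the 27 neighbours were above all 11 other libraries, 6 lay within their range and none was below it. Coding genes as a whole stood much the same way: of 15230 above 0 in some library, 10741 (70.5%) were above all 11 in replicate 3 and 977 (6.41%) below, so the neighbours' 77.8% is near that background. Their median was 27.7 TPM there and 4.08 TPM over the means of the 11. GARS1 had 137 TPM there, against 0 to 86.9 TPM elsewhere. EIF3J had 49.4 TPM against 2.70 to 7.48 TPM, and CD2BP2 54.1 TPM against 0.35 to 4.57 TPM. H2AZ1, in contrast, had 358 TPM in replicate 3, inside the range of 248 to 532 TPM of the others. On the mean of the 11 libraries, 20 neighbours were lower than their divergent transcript, and in replicate 3 none was. The rule chose the transcripts by that mean and asked nothing of the neighbours, so this contrast may follow in part from the choice. In 13 pairs the divergent transcript lay below and the coding gene above all 11 other values. Beside them, 42.4% of the features of 2 TPM or more lay below and 70.5% of coding genes lay above. Both shares are separate, and no joint share was computed. With 17 of the 27 transcripts below and 21 of the 27 neighbours above, the 13 are no result about pairs. The values of replicate 3 are levels of 1 library, with no replicate and no test.

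**Figure D2:**
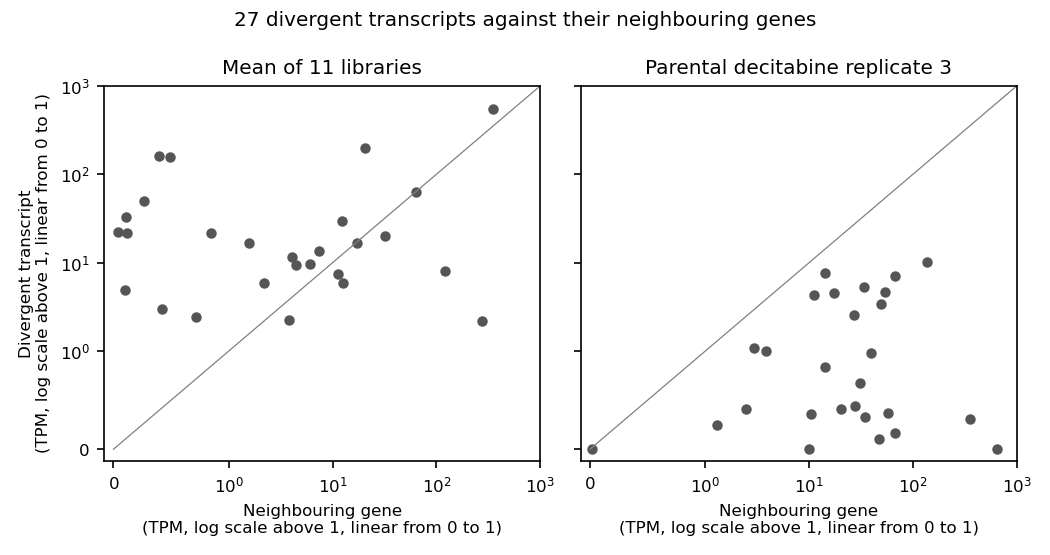
TPM of each divergent transcript (vertical axis) against its neighbouring gene (horizontal axis), as the mean of 11 libraries on the left and in parental decitabine replicate 3 on the right; both axes are linear from 0 to 1 and logarithmic above, and the line marks equal values. On the left 20 of the 27 points lie above the line, and on the right none does. The transcripts, and not the neighbours, were chosen by the mean on the left.

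The annotation of the 27 transcripts was set beside that of the other -DT rows. The rule did not use it, but the level that the rule used may hold RNA of a gene opposite the exons. The shares are therefore not independent of the choice, and the part of such RNA in them was not tested. An exon of another gene lay opposite the exons of 23 of the 26 transcripts with a model (88.5%), against 23 of 116 other -DT rows (19.8%). For 12 of the 23 the neighbour was a gene opposite, and for the other 11 only another gene. Among the 12, GARS1-DT and MFF-DT overlapped another gene more than the neighbour. For GARS1-DT a lincRNA covered 427 bases and GARS1 99, and for MFF-DT COL4A3 covered 120 and MFF 48. The 3 without any, ZKSCAN2-DT, SAP30-DT and CDKN2A-DT, were also the 3 lowest of the 27. Counted from the annotation, 46 -DT rows had an opposite exon and 23 of them (50%) reached the mean of 2 TPM over the 11 libraries. Without one, 3 of 96 rows did (3.13%). In replicate 3 the shares with at least 2 TPM were closer, 9 of 46 rows (19.6%) and 15 of 96 rows (15.6%). Of the 15 rows outside the 27 that reached 2 TPM in replicate 3 and had a model, 1 had an opposite exon. GENCODE 29 may differ from the authors' annotation, whose release is not given, so the shares describe these models.

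**Figure D3:**
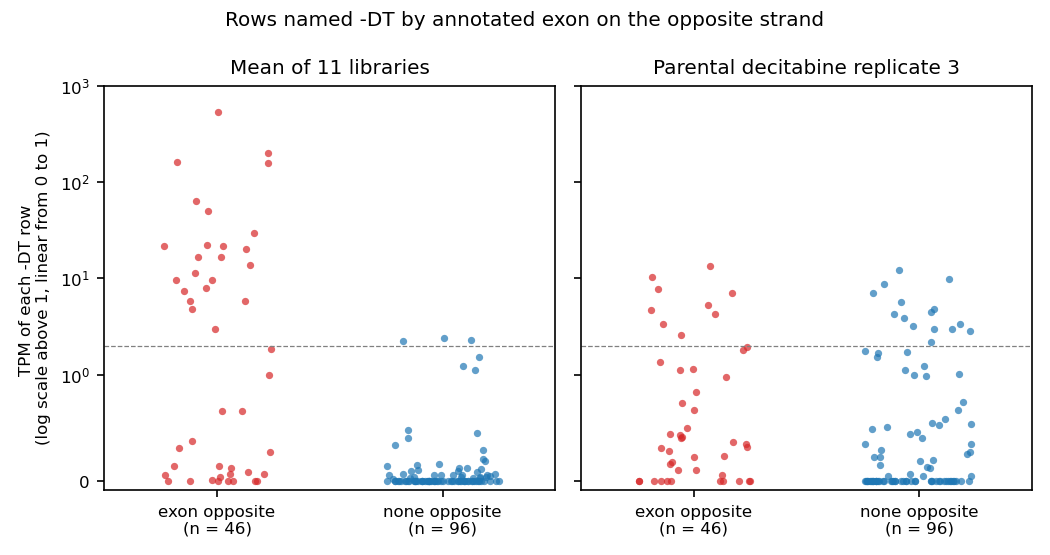
TPM of every -DT row with a gene model, split by whether an annotated exon of another gene lies opposite its exons (46 rows) or not (96 rows), as the mean of 11 libraries on the left and in parental decitabine replicate 3 on the right; the dashed line marks 2 TPM, and sideways scatter only separates points. On the left 23 red and 3 blue points lie above the line, and on the right 9 and 15.

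By share of exon length, the largest overlaps were those of IL10RB-DT, NCMAP-DT and MMADHC-DT. Of IL10RB-DT, 80.9% lay opposite IFNAR2, a subunit of the type I interferon receptor, and 0% opposite IL10RB itself. IFNAR2 had 48.4 TPM in replicate 3 against 0.94 TPM over the 11, the reverse of IL10RB-DT. NCMAP-DT had 74.4% of its exons opposite RCAN3, a calcineurin regulator, with 5.14 TPM in replicate 3 and 2.34 TPM over the 11. For MMADHC-DT the opposite gene was the neighbour (54.8%), with 47.1 TPM and 12.3 TPM. The next largest overlaps with the neighbour were those of KDM2B-DT (41.2%), UVRAG-DT (15.7%), H2AZ1-DT (13.0%) and TMEM18-DT (6.57%). The highest transcripts without exon overlap with the neighbour were IL10RB-DT, PDXP-DT, LRRC8C-DT, NCMAP-DT and KLHDC7B-DT. PDXP-DT lay opposite SH3BP1 over 34.7% of its length, and SH3BP1 was higher in the 11 libraries (108 TPM) than in replicate 3 (44.9 TPM). LRRC8C-DT lay opposite LRRC8B over 11.8%.

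Across the 26 transcripts with a model, the mean level was higher with more overlapping bases (Spearman rho 0.54) and with a larger share of the exon length (rho 0.42). The same mean chose these transcripts, and the 3 without any overlap lie just above the threshold. Both values of rho therefore describe only rows past that threshold. For 19 transcripts a measured coding gene lay opposite, and the main such gene was taken. It was not always the main gene opposite. Opposite GARS1-DT, a lincRNA without a value here covered 427 bases and GARS1 99. The mean of the 19 transcripts over the 11 libraries went weakly with the coding gene's level in replicate 3 (rho 0.24). With their own level there, rho was −0.28. Of the 19 opposite genes, 16 were higher in replicate 3 than in the mean of the 11. The share of all coding genes on that measure was not counted. Since 70.5% of coding genes were above all 11 libraries in replicate 3, the 16 are not shown to be particular to opposite genes. These are descriptions across transcripts that share libraries, and the transcripts are not independent replicates.

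In resistant cells, decitabine was set against vehicle to ask which of the 27 transcripts the drug moved. KDM2B-DT fell and NCMAP-DT rose, and the other 25 did not pass the test (limma, Benjamini-Hochberg adjusted over 8579 features). KDM2B-DT (chr12:121580792-121593504, plus strand) went from 7.43, 6.52 and 7.36 TPM under vehicle to 0 in all 3 decitabine libraries (limma on the log2(TPM + 1) scale, −3.02, SE 0.29, adjusted p = 0.0105). NCMAP-DT (chr1:24538802-24556024, minus strand) went from 19.1, 15.4 and 17.5 TPM to 35.7, 33.7 and 31.5 TPM (0.92, SE 0.17, limma adjusted p = 0.0493). In both the groups did not overlap. The neighbour KDM2B was not called, with 11.9, 11.7 and 10.3 TPM under vehicle and 12.5, 17.2 and 9.69 TPM under decitabine. NCMAP, at most at 0.25 TPM, was too low to be tested. These 2 of 27 calls stand beside 308 of 8579 features (3.59%).

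The groups did not overlap for 11 of the 27 (40.7%), 7 higher and 4 lower with decitabine, beside 28.4% of all features tested. At an unadjusted p under 0.05 there were 6 (22.2%), of which 4 were higher, beside 1695 of 8579 features (19.8%), a share near that of the 27. CTBP1-DT had 9.39, 0 and 0 TPM under vehicle and 16.0, 19.4 and 19.9 TPM under decitabine (3.15, SE 0.96, limma adjusted p = 0.148). GARS1-DT had a mean of 301 ± 62.3 TPM (SD, n = 3) under vehicle and 139 ± 50.7 TPM under decitabine (−1.17, SE 0.33, limma adjusted p = 0.132). PIK3IP1-DT and CD2BP2-DT were higher by 1.36 and 0.71. The median change of the 27 transcripts was 0.07, against 0.21 over all features, and 15 of the 27 changes were positive. In bulk RNA, fewer cells with a transcript and less of it per cell cannot be told apart.

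The call of NCMAP-DT was lost with either other scaling (0.79 in both, limma adjusted p = 0.0695 with median-ratio and 0.0791 with quantile scaling) and with each library left out in turn. A fitted change against a group at 0 depends on the pseudocount and is no bound: with 0.1 in place of 1, KDM2B-DT had −6.17. KDM2B-DT passed in 9 of its 10 alternatives and missed without resistant vehicle c (adjusted p = 0.0509), while CTBP1-DT passed without resistant vehicle a (4.27, adjusted p = 0.00799). With median-ratio and quantile scaling the median of all features became 0.105 and −0.06, and that of the 27 became −0.05 and −0.04. Calls over all features then split into 220 higher and 121 lower, and 131 and 65, from 243 and 65.

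**Figure D4:**
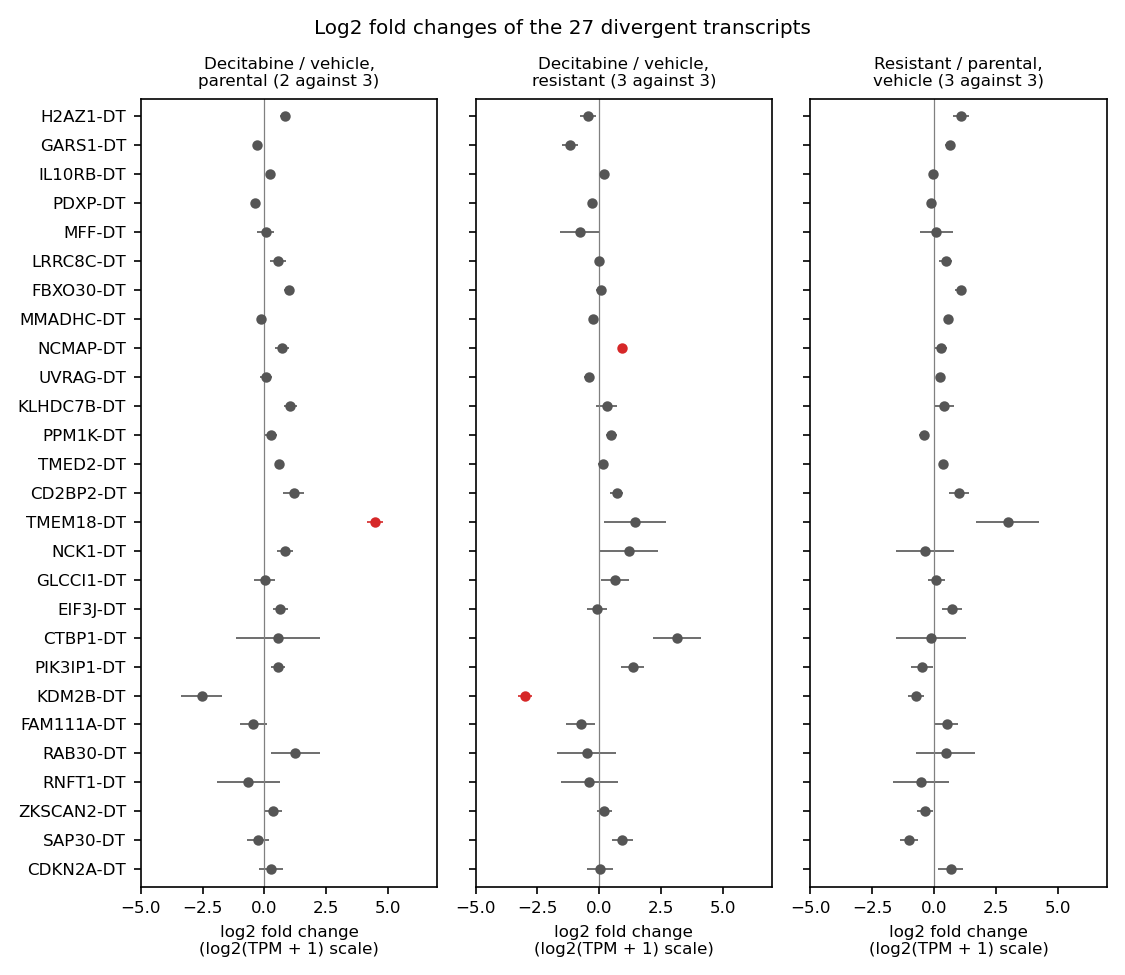
Log2 fold change (log2(TPM + 1) scale, bars ± SE) of each of the 27 divergent transcripts in 3 comparisons, with red for those past a limma adjusted p of 0.05. Red points are KDM2B-DT (−3.02) and NCMAP-DT (0.92) in resistant cells and TMEM18-DT (4.48) in parental cells.

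In parental cells the same question was asked with replicates 1 and 2 against 3 vehicle libraries. TMEM18-DT rose and the other 26 did not pass the test. TMEM18-DT (chr2:677186-697371, plus strand) was at 0 in all 3 vehicle libraries and at 17.8 and 25.3 TPM with decitabine (limma adjusted p = 0.0135), and at 0 in replicate 3. In resistant cells it had 0, 22.3 and 20.6 TPM under vehicle and 19.7, 27.3 and 17.1 TPM under decitabine. The coding partner TMEM18 had 18.0, 22.7 and 18.7 TPM in parental vehicle, 7.07 and 5.93 TPM in parental decitabine (−1.47, SE 0.21, limma adjusted p = 0.0551) and 10.1 TPM in replicate 3. This 1 call of 27 stands beside 151 of 8122 features (1.86%). It was lost without any 1 of the parental vehicle libraries and with replicate 3 included (limma adjusted p = 0.594). Its fitted change was 4.48, and 7.74 with a pseudocount of 0.1.

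In the parental comparison the groups did not overlap for 15 of the 27 transcripts (55.6%), 12 higher and 3 lower, beside 39.4% of all features tested. At an unadjusted p under 0.05 there were 8 (29.6%, beside 1461 of 8122 features, 18.0%): TMEM18-DT, FBXO30-DT (1.01), H2AZ1-DT (0.83), KLHDC7B-DT (1.05), TMED2-DT (0.60) and CD2BP2-DT (1.18) higher, and PDXP-DT (−0.37) and KDM2B-DT (−2.54) lower. KDM2B-DT had 10.02, 9.83 and 19.2 TPM under vehicle and 0 and 4.33 TPM under decitabine, without overlap (SE 0.82, limma adjusted p = 0.222). NCMAP-DT had 10.5, 17.6 and 15.1 TPM and then 26.4 and 21.2 TPM (0.71, SE 0.28, limma adjusted p = 0.287). The median change was 0.35, against 0.21 over all features, and 20 of the 27 were positive. With median-ratio and quantile scaling these medians were 0.21 and 0.12 for the 27 and 0.06 and −0.02 for all features. All calls then split into 104 higher and 85 lower, and 75 and 47, from 112 and 39.

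**Figure D5:**
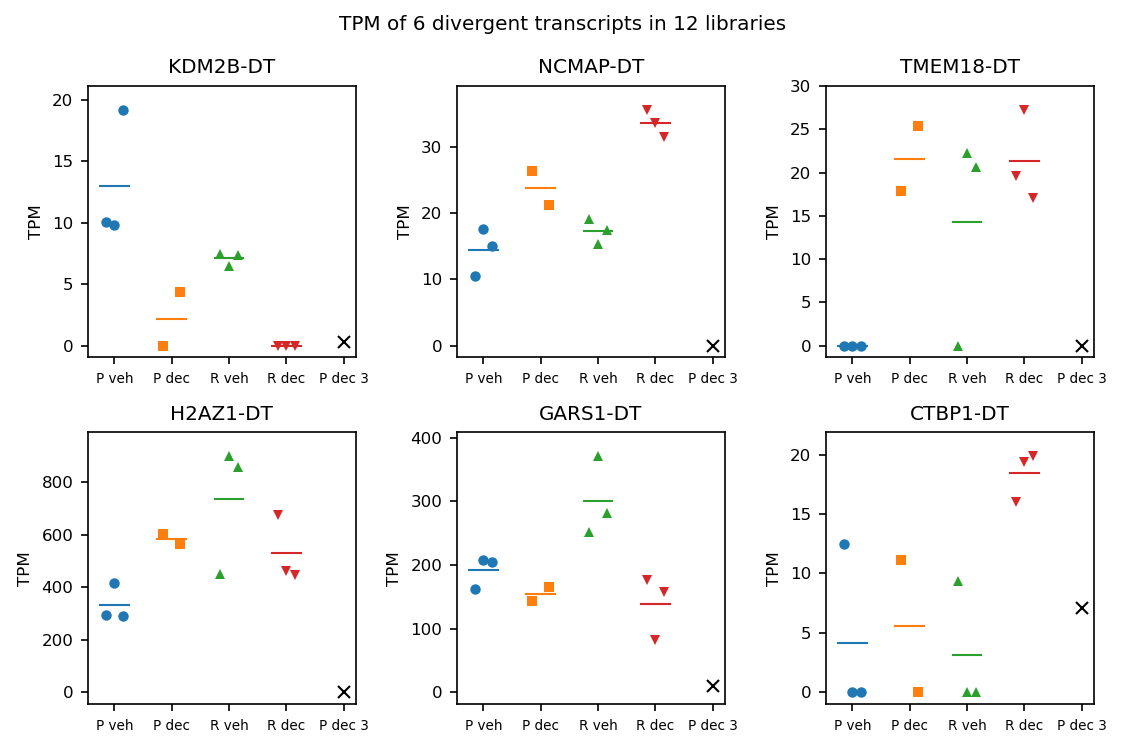
TPM of 6 divergent transcripts in parental (P) and resistant (R) cells with vehicle (veh) or decitabine (dec), each point 1 library, bars the group means and the cross parental decitabine replicate 3. KDM2B-DT lies at 0 in all 3 resistant decitabine libraries, and TMEM18-DT at 0 in all 3 parental vehicle libraries.

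The lines were compared under vehicle to ask which transcripts differed with venetoclax resistance, with 3 libraries a side; this comparison shares its vehicle libraries with those above. None of the 27 passed (limma, 0 of 27 at an adjusted p under 0.05, and 5 at an unadjusted p under 0.05), beside 217 of 7761 features (2.8%). The 5 are 18.5% of the 27, no larger a share than the 1496 of 7761 features (19.3%) at that unadjusted threshold. They were FBXO30-DT (17.8 ± 3.01 TPM in parental and 39.0 ± 7.71 TPM in resistant cells, SD, n = 3, 1.08, limma adjusted p = 0.0711), H2AZ1-DT (1.098, adjusted p = 0.142), GARS1-DT (0.64, adjusted p = 0.148), MMADHC-DT (0.56, adjusted p = 0.126) and SAP30-DT (−1.01, adjusted p = 0.228). The groups did not overlap for 9 of the 27 (33.3%), 7 higher in resistant cells, beside 28.1% of all features tested. The median was 0.28, against 0.11 over all features. With median-ratio and quantile scaling it was 0.13 and 0.14, against −0.02 over all features with the first and 0.02 with the second. All calls then split into 86 higher and 105 lower, and 86 and 98, from 134 and 83. Without resistant vehicle a, H2AZ1-DT (1.42, limma adjusted p = 0.0469) and TMEM18-DT passed.

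The difference between the responses of the lines was tested as an interaction over 11 libraries. None of the 27 passed (limma, 2 at an unadjusted p under 0.05), beside 31 of 8505 features (0.364%). At the unadjusted threshold the shares were 7.41% of the 27 and 10.1% of all features. The fitted change of H2AZ1-DT was 0.83 in parental and −0.44 in resistant cells (difference −1.27, SE 0.43, limma adjusted p = 0.335). FBXO30-DT had a difference of −0.94 (SE 0.29, adjusted p = 0.301). For the transcripts called in 1 line, the difference between the lines was −0.48 for KDM2B-DT (limma adjusted p = 0.883), 0.21 for NCMAP-DT (adjusted p = 0.856) and −3.01 for TMEM18-DT (adjusted p = 0.544). TMEM18-DT passed it without resistant vehicle a, the library of that group with 0 TPM.

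Coding partners were set beside the transcripts in each comparison, where both had been tested. The limit of the unknown strand setting holds for the coding rows too. ACTB, for instance, stood at 8.14 to 20.4 TPM in the 11 libraries, against 6353 TPM in replicate 3. A change of a coding row may therefore not be a change of the coding RNA. With decitabine in resistant cells, 14 of 17 pairs had fitted changes of the same sign (Spearman rho 0.50 and Pearson r 0.36 across pairs). The sign of a partner says little here, as 0 of the 17 had an unadjusted p under 0.05 by limma. Among the 14, MFF had −0.03 (SE 2.79), MMADHC −0.03 (SE 1.78) and GARS1 −0.13 (SE 2.13). The mean of MFF rose from 103 to 115 TPM and that of GARS1 from 25.8 to 32.7 TPM, against the sign of the fit. In parental cells 9 of 18 did (rho 0.08, r −0.23), and between the lines 13 of 17 (rho 0.25, r −0.39). In the last 2 comparisons the rank and linear measures had opposite signs. Of the partners, 2 were called. They were 1 of 18 with decitabine in parental cells, beside 1.86% of all features, and 1 of 17 between the lines, beside 2.8%. In resistant cells 0 of 17 were called, beside 3.59%. TMEM18 fell from 19.8 TPM on average in parental vehicle to 0 in all 3 resistant vehicle libraries (limma adjusted p = 0.00215), while TMEM18-DT was at 0 in the former and at 0, 22.3 and 20.6 TPM in the latter. GARS1 rose in parental cells from 0 in 3 vehicle libraries to 36.9 and 14.4 TPM (limma adjusted p = 0.0327), where GARS1-DT had 162 to 208 TPM and then 143 and 166 TPM. GARS1 was also at 0 in 2 of the 6 resistant libraries, so its values switch within groups.

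Genes that process divergent RNA were described from a list of exosome, adaptor and termination factors. Of 44 in the tables, 24 were tested and none was called in any of the 4 comparisons by limma. At an unadjusted p under 0.05 there were 4 with decitabine in resistant cells, 2 in parental cells, 3 between the lines and 1 in the difference of responses, out of 24 each time, where all features had shares of 19.8%, 18.0%, 19.3% and 10.1%. Their median changes were 0.01, 0.37, 0.28 and −0.10, beside 0.21, 0.21, 0.11 and −0.00278 over all features. Of 13 DNA methylation genes, 2 or 3 were tested and none was called by limma (0 at an unadjusted p under 0.05). DNMT1, the maintenance methyltransferase, reached 221 TPM in replicate 3, against 0 to 2.40 TPM in the 11 libraries. The unknown strand setting limits what the values of both lists can show.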

How the data were processed

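Per the labels' protocols, polyadenylated RNA was sequenced from stranded libraries by DNBSEQ. The build hg38 and the tools StringTie, HISAT2 and DESeq2 are named per the submitters' processing notes, and their versions, the strand setting and the annotation release are not stated there. Both deposited tables, 1 for each line, hold decimal values that sum to 1000000 in each library and were taken as TPM, computed by the authors within each library. TPM keep no depth, so depth is unknown and no counting interval is given. A 0 was read as listed at 0.

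Names were used as identifiers. Once-named features (59490) that averaged 1 TPM or more over the libraries of a fit were tested on log2(TPM + 1) with limma 3.58.1, with its trend option, in R 4.3.3, which understates changes of low features, at a Benjamini-Hochberg adjusted p under 0.05. The test was tried on simulated data. Resistant columns carry no replicate number and were mapped to groups. Exon overlap came from GENCODE 29 and promoter windows from RefSeq GRCh38.p14. The transcripts and lists were chosen with earlier results of these data known. The text names, by rule, the 10 highest transcripts, those called, the 3 on either side of the threshold, the 5 highest in parental decitabine replicate 3, the 5 with most and 5 with no exon overlap with the neighbour, and their neighbours; the other transcripts of the 27, the main opposite genes and the -DT rows named in the closing section were added after their values were seen. The result of 1 row is not reported here. Alternatives were 2 other scalings, no filter, an average of 5 TPM or more (in the fit, or to choose the transcripts), a pseudocount of 0.1, each library left out, replicate 3 included and a replicate block.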

Additional observations from a re-analysis of the deposited data

Results flagged for a closer look

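Several rows named -DT outside the 27 held signal in parental decitabine replicate 3 above every vehicle library. In that library FLVCR1-DT stood at 13.6 TPM, MAP3K2-DT at 12.3 TPM, CHKB-DT at 8.65 TPM, MRPL20-DT at 7.07 TPM, CCDC84-DT at 6.94 TPM and NUP50-DT at 5.69 TPM. MAP3K2-DT, MRPL20-DT, CCDC84-DT and NUP50-DT were listed at 0 in all 11 other libraries. In all, 25 -DT rows reached 2 TPM in replicate 3, of which 9 were among the 27 transcripts of the report and 16 were not, 7 of the 16 being at 0 in all 11. The 27 held 31.2% of the TPM under -DT names in replicate 3. These values come from 1 library, were not tested, and the part of the strand setting in them was not tested.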

How the results depend on the processing

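In resistant cells the count of called transcripts, 2 of the 27, became 1 with median-ratio scaling, with quantile scaling, with no filter and with a mean of at least 5 TPM, and 0 to 2 with each library left out, 0 without vehicle c. In parental cells the count of 1 became 0 with replicate 3 included, when no feature of 13778 was called, and 0 to 1 with each library left out, 0 without vehicle 1, 2 or 3. With the replicate block in parental cells it was 0 (0 of 8122 features called), and TMEM18-DT kept 4.48 at a limma adjusted p of 0.389. Deviations of same-numbered parental libraries from their group means had correlations of 0.01, 0.01 and 0.03, with replicate 3 in the decitabine mean. Without replicate 3 they were −0.009 and −0.010. With so few libraries in a group, these values cannot show whether the numbers pair them. Between the lines the count of 0 became 2 without resistant vehicle a (0 to 2 over the libraries left out), and in the difference of responses 1 (0 to 1). With replicate 3 included, FBXO30-DT (−0.38), H2AZ1-DT (−2.10), KLHDC7B-DT (−0.43) and TMED2-DT (−0.71) changed direction in parental cells, as did FBXO30-DT (0.45) and H2AZ1-DT (1.67) in the difference of responses. The cause of these changes was not tested, beyond the fewer libraries of the fits that leave one out. Over the alternatives, limma adjusted p ran from 0.00997 to 0.0509 for KDM2B-DT and from 0.0409 to 0.138 for NCMAP-DT in resistant cells, and from 0.0117 to 0.594 for TMEM18-DT in parental cells. KDM2B-DT was not tested at a mean of at least 5 TPM.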

Other observations

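More -DT rows were above 0 with decitabine than without. Of the 149 rows, 37 to 40 were above 0 in each of the 6 vehicle libraries, 43 to 48 in the 5 decitabine libraries other than parental replicate 3, and 91 in replicate 3. The total number of features at 1 TPM or more was 7137 to 7405 in vehicle and 8250 to 9117 in those decitabine libraries. That threshold is unlike the one for the -DT rows, and a higher count was not particular to them.

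Some coding partners switched between libraries of 1 group. MFF was listed at 0 in 5 of the 11 libraries and at 277 TPM in resistant vehicle c and 318 TPM in resistant decitabine a, while MFF-DT had 21.8 and 16.8 TPM in these, its lowest values. PPM1K had 3.18, 3.88 and 5.45 TPM in resistant vehicle c, resistant decitabine a and parental decitabine 1, and 24.9 to 74.5 TPM in the other 8, while PPM1K-DT lay between 13.7 and 28.6 TPM in all 11.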
